A study of Homo sapiens with 8 samples.

Results

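Cadherins are the calcium-dependent adhesion receptors that hold neighbouring cells together, and the chromatin around 7 of their genes was followed here through TGFβ1 treatment: CDH1 (E-cadherin), CDH3 (P-cadherin), CDH2 (N-cadherin), CDH4 (R-cadherin), CDH6 (K-cadherin), CDH11 (OB-cadherin) and CDH13 (T-cadherin). The cells were MCF10A, an immortalised, non-tumorigenic line of human mammary epithelium, used here as wild type. They received solvent, which was BSA in PBS, or 5 ng/ml TGFβ1 for 6, 24 or 72 h. Accessible DNA was mapped by ATAC-seq, which tags open chromatin by means of a transposase, with 2 replicates for each of the 4 conditions and thus 8 libraries. The labels place solvent at time 0, whereas a legend of the study describes it as 72 h of solvent. One peak list per condition was analysed, called on both replicates together, so that each value stands alone and no difference below has a replicate check or a p-value.

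The 4 lists held between 86209 and 118433 peaks and merged into 126658 regions. Of these, 139 (0.11%) overlapped the gene body of a cadherin with 50 kb on either side. CDH13 held 51 of them, CDH3 28, CDH4 24, CDH1 19, CDH2 18, CDH11 7 and CDH6 4, where 12 were counted for both CDH1 and CDH3 because these genes lie side by side on chromosome 16. The measure of a peak was its area under the curve (AUC), which sums the significance of the ATAC-seq signal along the peak and so grows with both its height and its width. AUC values are printed as deposited. Ratios to solvent were computed after division of each list by its median ratio at regions within 3 kb of a transcription start site (TSS), which for 6, 24 and 72 h was 1.36, 1.3 and 1.19, and they are given on the log2 scale. A region counted as gained when a TGFβ1 list had a peak and solvent had none, as lost in the reverse case, and as 2-fold higher or lower when both lists had a peak and the scaled log2 ratio reached 1 or -1. The depth behind each list is unknown, since the lists hold no read counts. In cells measured in bulk, a larger share of cells with an open region and a wider opening in each cell cannot be told apart.

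Among start sites of marker genes, those of KRT5, KRT14, KRT17, EPCAM and KRT18 had a peak in every list, which is 5 of the 6 mammary epithelial markers examined, and TP63 had none at the start of its canonical transcript. None of 3 fibroblast, 3 endothelial and 2 leukocyte markers had a start site peak in any list.

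E-cadherin joins epithelial cells at adherens junctions, where its cytoplasmic tail binds β-catenin and p120-catenin and, through α-catenin, the actin cytoskeleton. In epithelial-mesenchymal transition (EMT), cells often exchange E-cadherin for N-cadherin, which is called the cadherin switch. SNAIL and ZEB factors are known to bind E-box motifs in the CDH1 promoter, and AP-1, a dimer of JUN and FOS proteins, binds the TGACTCA motif. P-cadherin is characteristic of basal mammary epithelium, R-cadherin of brain and kidney, K-cadherin of kidney, and OB-cadherin of bone and other mesenchyme. T-cadherin differs from the others in being held at the membrane by a lipid anchor without a cytoplasmic tail, and is thus no classical cadherin in the structural sense.

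The DNA of the regions to which the values below refer back is shown first. Each run is the summit with 100 bp on either side, on the plus strand of GRCh38, and the CDH2 promoter is the 250 bp upstream of the canonical start site from the RefSeq table (GRCh38.p14). Capitals mark AP-1 motifs (TGACTCA or its reverse complement TGAGTCA) and E-boxes (CACCTG or CAGGTG). The CDH2 runs are the promoter, the 2 regions of highest 72 h ratio and the larger of the gains common to all TGFβ1 lists. That of CDH1 is the only solvent peak of its locus that was absent at 72 h. The remaining runs give 1 or 2 of the highest or gained regions of CDH4, CDH6 and CDH11. These runs are a selection and do not stand for cadherin regions at large, of which 36% held an AP-1 motif. The largest gains at 72 h of CDH2, at +112 kb, of CDH4, at +304 kb, and of CDH11, at +212 kb, are not printed and held neither motif.
CDH2 promoter, minus strand (chr18:28177131-28177380): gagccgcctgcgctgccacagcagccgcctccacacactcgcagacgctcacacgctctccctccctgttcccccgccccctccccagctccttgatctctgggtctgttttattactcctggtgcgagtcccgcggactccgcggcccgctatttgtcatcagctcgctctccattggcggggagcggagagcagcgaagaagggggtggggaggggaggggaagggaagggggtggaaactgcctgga
CDH2 intron 2 at +61.9 kb (chr18:28115120-28115320): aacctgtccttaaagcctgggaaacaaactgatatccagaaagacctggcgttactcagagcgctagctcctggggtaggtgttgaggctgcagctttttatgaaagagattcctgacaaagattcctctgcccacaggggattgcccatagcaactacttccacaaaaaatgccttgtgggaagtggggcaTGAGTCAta
CDH2 intron 2 at +138 kb (chr18:28039188-28039388): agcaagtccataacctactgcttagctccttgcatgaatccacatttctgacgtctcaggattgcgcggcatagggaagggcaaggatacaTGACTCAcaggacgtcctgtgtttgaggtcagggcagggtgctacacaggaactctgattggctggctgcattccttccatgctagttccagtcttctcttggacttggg
CDH2 intron 7 at +180 kb (chr18:27996833-27997033): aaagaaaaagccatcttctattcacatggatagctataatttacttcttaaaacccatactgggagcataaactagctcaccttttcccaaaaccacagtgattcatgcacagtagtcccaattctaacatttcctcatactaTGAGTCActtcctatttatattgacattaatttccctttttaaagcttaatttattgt
CDH1 intron 2 at +41.8 kb (chr16:68778990-68779190): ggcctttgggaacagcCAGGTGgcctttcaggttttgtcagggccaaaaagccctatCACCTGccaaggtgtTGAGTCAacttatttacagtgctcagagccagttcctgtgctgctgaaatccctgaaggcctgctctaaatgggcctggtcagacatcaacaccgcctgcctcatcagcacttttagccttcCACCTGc
CDH4 upstream flank, 46.3 kb before the start (chr20:61205876-61206076): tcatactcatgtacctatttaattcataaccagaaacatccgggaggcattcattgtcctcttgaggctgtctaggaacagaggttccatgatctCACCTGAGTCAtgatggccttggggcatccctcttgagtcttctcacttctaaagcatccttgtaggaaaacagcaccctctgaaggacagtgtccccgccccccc
CDH4 intron 3 at +506 kb (chr20:61758266-61758466): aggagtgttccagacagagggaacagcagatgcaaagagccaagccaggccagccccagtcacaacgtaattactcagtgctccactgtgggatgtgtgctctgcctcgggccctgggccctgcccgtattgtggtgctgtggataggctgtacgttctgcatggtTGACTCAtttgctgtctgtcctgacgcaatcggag
CDH6 intron 1 at +1.33 kb (chr5:31194918-31195118): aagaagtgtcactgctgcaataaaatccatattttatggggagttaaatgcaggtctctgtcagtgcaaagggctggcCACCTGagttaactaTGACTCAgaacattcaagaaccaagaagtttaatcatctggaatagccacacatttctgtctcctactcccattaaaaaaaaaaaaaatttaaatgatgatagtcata
CDH11 intron 7 at +138 kb (chr16:64984082-64984282): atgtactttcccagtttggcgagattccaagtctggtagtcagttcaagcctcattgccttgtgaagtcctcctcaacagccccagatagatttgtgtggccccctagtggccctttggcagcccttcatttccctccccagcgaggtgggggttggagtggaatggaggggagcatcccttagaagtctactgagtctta

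The loci of the 7 genes diverged in how much accessible DNA they held (the plot of locus sums over time). The 3 highest were CDH6, CDH11 and CDH2, whose summed AUC was more than 2-fold that of solvent at 72 h, whereas CDH1 and CDH3 stayed close to solvent. At 72 h, the scaled log2 ratio of the locus sum was 1.38 at CDH6, 1.23 at CDH11, 1.12 at CDH2, 0.72 at CDH13, 0.5 at CDH4, 0.21 at CDH3 and 0.12 at CDH1, the last of which was -0.03 when scaled on all shared regions. That scaling put CDH2 at 0.97, short of 2-fold, and with lists cut to equal length CDH2 was at 0.91 and CDH6 at 0.21, whereas CDH11 was below 2-fold in the gene body alone, at 0.93. On AUC per base, with scaling recomputed on that measure, CDH2, CDH6 and CDH11 were at 0.29, 0.25 and 0.13. Across 18781 protein-coding genes treated in the same way, the median for 6, 24 and 72 h was 0.05, 0.1 and 0.11. A locus sum at least 2-fold higher was found for 1.14% of these genes at 6 h, 3.73% at 24 h and 4.35% at 72 h, compared with 0, 1 and 3 of the 7 cadherin genes. At 72 h, 2.08% of all genes had a ratio as high as that of CDH6, 2.77% as high as CDH11, 3.49% as high as CDH2, 8.13% as high as CDH13, 14.2% as high as CDH4, 35.8% as high as CDH3 and 47.9% as high as CDH1. These ranks are over genes of any solvent signal, and genes of like signal were not ranked apart. The summed solvent AUC was 522 over 2 regions at CDH6, 2040 over 4 at CDH11 and 5649 over 7 at CDH2. At CDH1 it was 19791 over 15 regions. Without replicate values, it cannot be said which neighbours in this order differ.

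**Figure D1:**
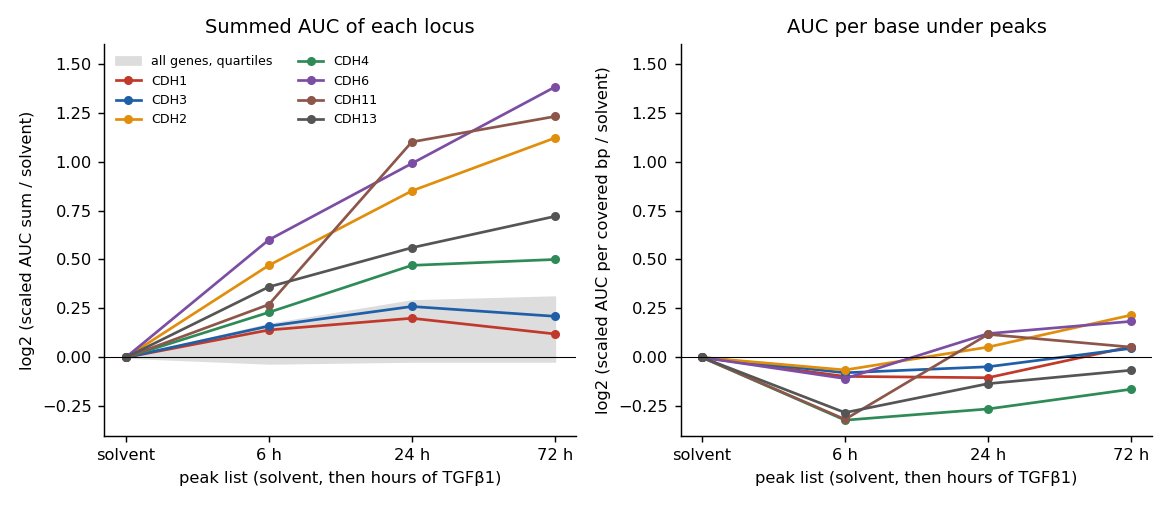
Left, scaled log2 ratio to solvent of the AUC summed over each cadherin locus (y axis) in the solvent, 6, 24 and 72 h lists (x axis), 1 line per gene, with the quartiles over 18781 protein-coding genes in grey. Right, the log2 ratio to solvent of AUC per base under peaks, with the scaling of the left panel. Per-base ratios in the text used scaling recomputed on that measure and therefore differ. On the left CDH6, CDH11 and CDH2 end at 1.38, 1.23 and 1.12 and CDH1 at 0.12. On the right the 7 lines lie below 0 at 6 h, and those of CDH6, CDH11 and CDH2 end well below their ends on the left.

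The larger sums went with longer covered stretches more than with denser signal within them. The peaks of CDH2 covered 3.5 kb in solvent, then 5.09 kb at 6 h, 6.11 kb at 24 h and 6.54 kb at 72 h, at a scaled AUC per base of 1.61, 1.54, 1.67 and 1.87. The CDH6 peaks covered 0.417 kb in solvent and 0.958 kb at 72 h, at 1.25 and 1.42 per base. Those of CDH11 extended over 1.09 and 2.45 kb, at 1.88 and 1.95 per base. For CDH13, the covered length was 11.1 kb in solvent and 19.2 kb at 72 h, at 2.03 and 1.94 per base. In contrast, the CDH1 peaks covered 8.58 and 8.95 kb, at 2.31 and 2.4 per base, which is the least extension among the 7 genes. All peaks of a list together covered 44.8 Mb in solvent and 58.4, 60.4 and 58.9 Mb at 6, 24 and 72 h. A longer covered length was thus common to the TGFβ1 lists as a whole and not particular to these loci.

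Over the 7 loci, 36 of 114 regions with a peak in either list were gained at 6 h (31.6%), 49 of 127 at 24 h (38.6%) and 49 of 127 at 72 h (38.6%). The corresponding shares over all merged regions were 22.9%, 29.8% and 29.3%, and over those more than 3 kb from any TSS 26.8%, 35.2% and 35.4%, against 33.3%, 41.7% and 41.1% for cadherin regions at that distance. Loss was rare. No cadherin region was lost at 6 h, 1 at 24 h and 2 at 72 h, next to 0.551%, 1.31% and 2.43% of all regions. When each list was cut to the 86209 peaks of largest AUC, 7 of 85, 20 of 98 and 21 of 99 cadherin regions counted as gained at 6, 24 and 72 h and 5, 12 and 13 as lost. All regions then gave 8.69%, 11.9% and 13.8% gained and 5.44%, 9.47% and 11.6% lost.

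Of the regions peaked in both lists, 4 of 78 were at least 2-fold higher at 6 h, 8 of 77 at 24 h and 10 of 76 at 72 h, beside 3.45%, 8.37% and 10.5% of all regions. The cadherin shares of 5.13%, 10.4% and 13.2% were close to these. A single region was 2-fold lower, at 24 h only, where 0.935% of all regions were, next to 0.215% at 6 h and 1.23% at 72 h. Low solvent values went with high ratios. Of the 10 regions higher at 72 h, 8 had a solvent AUC below 400, which is 29.6% of the 27 such cadherin regions, and the same share among all regions below 400 was 27.2%. From 400 upward, 2 of 49 cadherin regions (4.08%) and 5.38% of all regions were 2-fold higher (the scatter of ratio against solvent AUC). The part played by the calling threshold in these ratios was not tested.

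**Figure D2:**
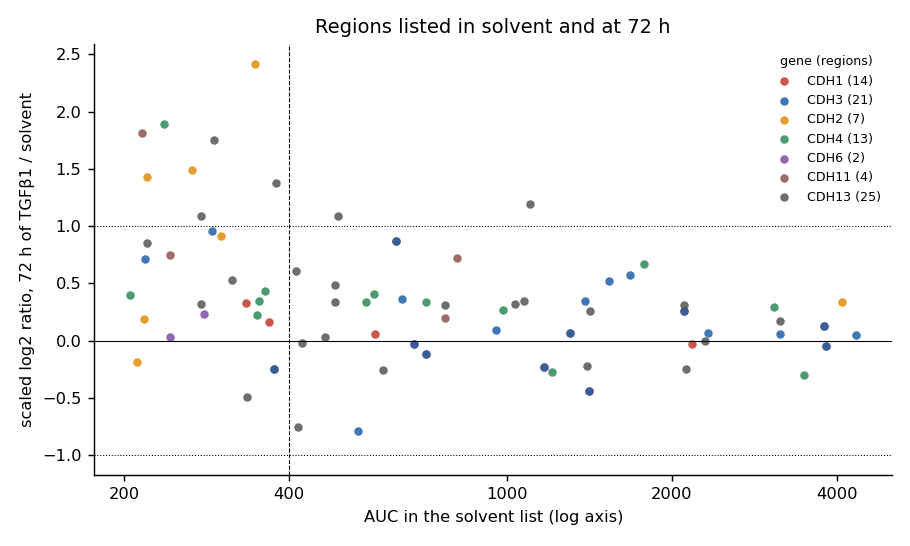
Scaled log2 ratio of 72 h TGFβ1 to solvent (y axis) against AUC in solvent (x axis, log scale) for cadherin regions with a peak in both lists, coloured by gene, where regions counted for both CDH1 and CDH3 are drawn for each. Dotted lines mark 2-fold and the dashed line an AUC of 400. Of the 10 regions above the upper dotted line, 8 lie left of the dashed line, and the highest point is the CDH2 region at 2.42.

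A peak in all 4 lists was found for 75 of the 139 regions (54%), compared with 62.6% of all merged regions. Another 30 (21.6%) were peaked in every TGFβ1 list and not in solvent, compared with 14.3% overall. By gene, 15 of these 30 belonged to CDH13, 6 to CDH4, 4 to CDH3, 2 each to CDH1 and CDH2, and 1 each to CDH6 and CDH11 (the bar chart of list membership), where 1 region was counted for both CDH1 and CDH3.

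**Figure D3:**
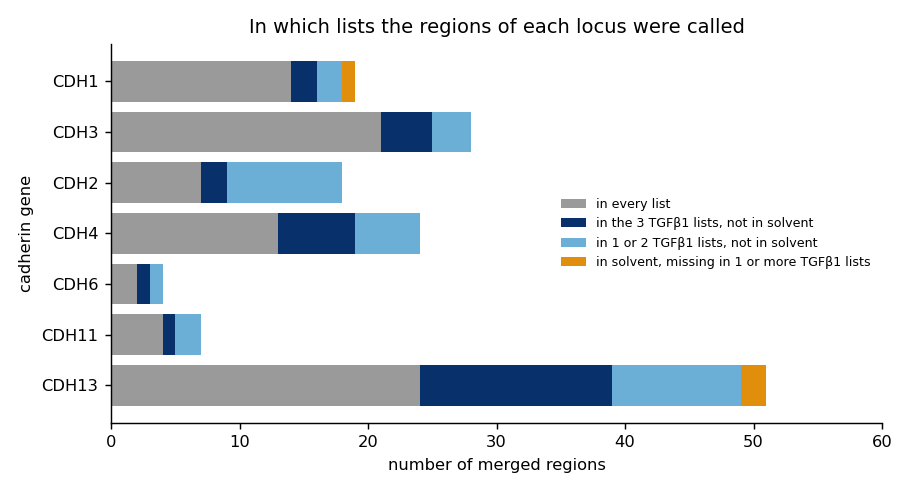
Number of merged regions (x axis) of each cadherin gene (y axis), divided by the lists in which a peak was called. Bars for CDH1 and CDH3 are mostly grey, with 14 of 19 and 21 of 28 regions peaked in every list, whereas 7 of 18 CDH2 regions were.

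CDH1 (ENSG00000039068.20) lies on the plus strand of chromosome 16 from 68737292 to 68835537. Its accessible DNA differed little in total, with the start site lower at 72 h. The region over the TSS, chr16:68736980-68737809, had an AUC of 1414 in solvent, then 1943 at 6 h, 1655 at 24 h and 1233 at 72 h. After scaling the log2 ratios were 0.02, -0.15 and -0.44, so that it stood above solvent as deposited at 6 and 24 h but not after scaling at 24 h, and below it at 72 h by both. Of all regions shared by solvent and 72 h, 94.1% had a higher or equal ratio. The median of these was 0.15, whereas regions within 3 kb of a TSS had a median of 0 and a lower quartile of -0.15. The rank among the latter alone was not computed. The adjoining region over exon 2, chr16:68737934-68738867, had AUC values of 1169, 1625, 1531 and 1181, and scaled log2 ratios of 0.03, 0.01 and -0.23. The window at the CDH1 start site contained 3 E-boxes and no AP-1 motif.

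Most of the CDH1 accessible DNA was in strong regions that differed little among lists. The strongest in each TGFβ1 list, 29.8 kb upstream within the CDH3 gene body (chr16:68706985-68708149), had AUC values of 3791, 5379, 5613 and 4914, which gave scaled log2 ratios of 0.06, 0.19 and 0.13. In intron 2, the region at +19 kb (chr16:68755486-68757004) had 3830, 4958, 5149 and 4405, with ratios of -0.07, 0.05 and -0.05. Across the 14 regions shared by solvent and 72 h, the ratio ranged from -0.44 to 0.87 with a median of 0.01, next to 0.15 over all regions. Without scaling the highest was 1.12, which is past 2-fold. Without the regions that lie nearer to another gene, the sum over the remaining 14 regions had a log2 ratio of 0.16 at 72 h.

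Weaker regions of CDH1 included some that came or went. The region at +63.2 kb in intron 2 (chr16:68800358-68800762) had 333 in solvent and 646, 579 and 495 with TGFβ1, and its scaled log2 ratios of 0.51, 0.42 and 0.33 were short of 2-fold and at 72 h the second highest of the locus. The intron 2 region at +41.8 kb (chr16:68778992-68779204) had AUC values of 340, 422 and 375 and no peak at 72 h. This region was the only one lost at CDH1, from a solvent value below 400, and its window held 3 E-boxes and 1 AP-1 motif. At CDH1, 2 regions were peaked in every TGFβ1 list and not in solvent, with an AUC of up to 1354 at 72 h, the highest at that time among gained regions of the 7 genes. The lower of these, in intron 2 at +22.9 kb (chr16:68760108-68760293), had 323, 316 and 295. The second lowest ratio at 72 h, after that of the start site, was seen 36.9 kb upstream (chr16:68700144-68700469), where AUC values of 375, 488, 307 and 375 gave -0.06, -0.66 and -0.25.

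CDH3 (ENSG00000062038.15), which directly precedes CDH1 on the same strand, spans 68636189 to 68727468. Its promoter was strong and near solvent level. At 72 h, 6 of 27 regions were gained (22.2%), next to 29.3% of all regions, and none was lost at any time. Of its 28 regions, 12 were also counted for CDH1, so that part of any likeness between these loci is built in. Its start site region, chr16:68644350-68646397, had AUC values of 4343, 6315, 6313 and 5329, and scaled log2 ratios of 0.1, 0.16 and 0.05. The window at its summit held 3 E-boxes, as did that of CDH1. A region over exon 3, chr16:68676150-68676784, was the most changeable, with 289 in solvent, then 1135 at 6 h, 1337 at 24 h and 666 at 72 h. Its scaled log2 ratios of 1.53, 1.83 and 0.96 show that it was highest at 24 h and was below 2-fold at 72 h, although without scaling it was 1.2 at that time. The lowest ratio was seen 27.4 kb upstream (chr16:68617815-68618154), where AUC values of 535, 553, 660 and 367 gave -0.39, -0.08 and -0.79. Of the gained regions, the largest at 72 h was 32 kb upstream (chr16:68613057-68613393), with 285, 486 and 588. Another was 16.5 kb upstream (262, 260 and 320). A further one, 8.32 kb before the canonical start (426, 662 and 475), lay in an intron of the gene, 608 bp from another CDH3 start.

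CDH2 (ENSG00000170558.10) is encoded on the minus strand of chromosome 18 between 27932879 and 28177946. In solvent, its accessible DNA was concentrated at the promoter, and with TGFβ1 it extended into the introns. The number of peaked regions was 7 in solvent, then 11 at 6 h, 15 at 24 h and 14 at 72 h. Of 14 regions with a peak in solvent or at 72 h, 7 were gained (50%), compared with 29.3% of all regions. More than 3 kb from any TSS, the shares were 50% of 10 CDH2 regions and 35.4% of all. The median AUC of the gained CDH2 regions was 373 at 72 h, where the lists begin at 200. Log2 ratios of the locus sum were 0.47, 0.85 and 1.12. The promoter region, chr18:28176030-28178585, had AUC values of 4089, 6192, 5955 and 6141 and scaled log2 ratios of 0.16, 0.16 and 0.34. It provided most of the summed AUC of 5649 in solvent. Without it, the scaled sum of the other 17 regions was 1560 in solvent, then 3261 at 6 h, 5619 at 24 h and 7086 at 72 h, which are log2 ratios of 1.06, 1.85 and 2.18. The promoter was thus already open in solvent, and the difference lay mainly elsewhere (the plot of CDH1 and CDH2 regions by distance). Of the 17 regions, the 6 with a solvent peak were below 400 there, where 27.2% of all regions were 2-fold higher at 72 h. The shares over all genes given above include promoters, and none was computed without them. None of the 3 motifs searched was present in the promoter run printed above.

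**Figure D4:**
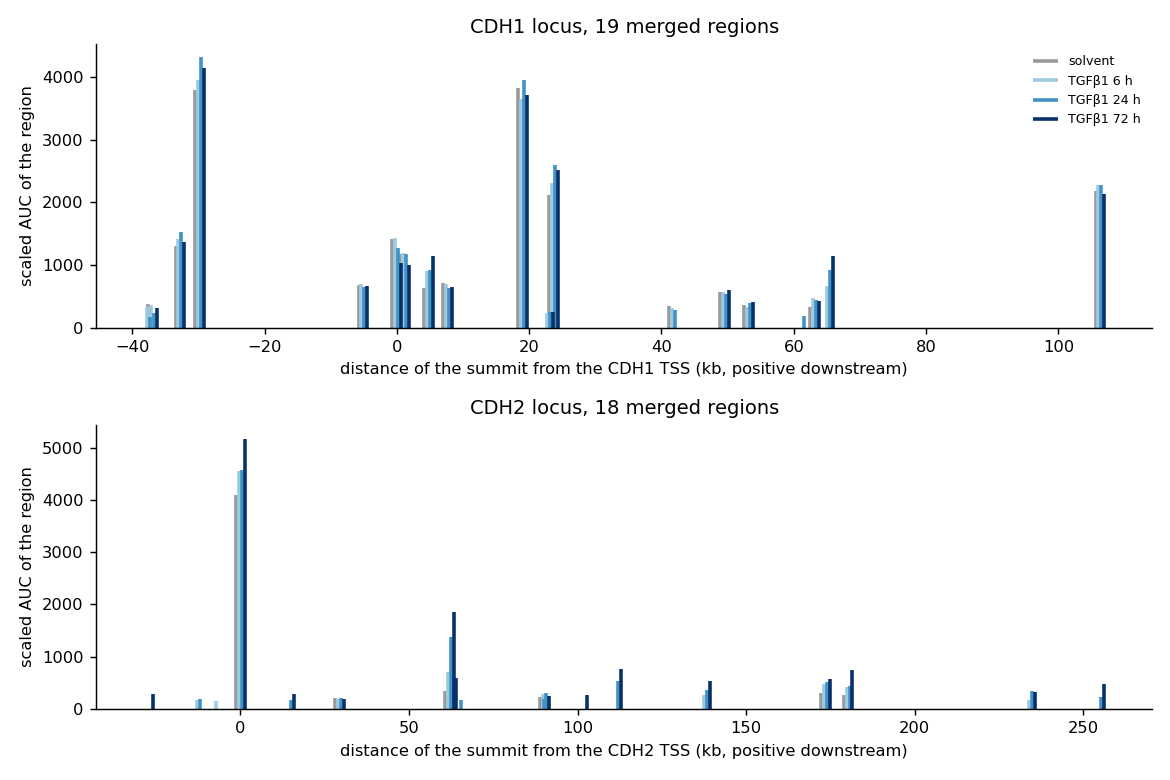
Scaled AUC (y axis) of each merged region of CDH1 (top) and CDH2 (bottom) against the distance of its summit from the start site in kb (x axis), with 1 bar per list from grey (solvent) to dark blue (72 h). At CDH1 the tall bars are alike in all lists, whereas CDH2 has 1 tall group at the start site and lower groups downstream, the largest of them at +61.9 kb. The downstream groups are highest at 24 or 72 h, except that at +29.4 kb, which is highest in solvent.

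The largest difference was within intron 2, at +61.9 kb (chr18:28114997-28115590). This region had an AUC of 347 in solvent, then 961 at 6 h, 1792 at 24 h and 2198 at 72 h. Scaled log2 ratios were 1.03, 1.99 and 2.42, and each list was above the one before it. Only 0.339% of the 79658 regions shared by solvent and 72 h had a ratio as high. Most of these are stronger in solvent, and the share among weak regions alone was not computed. Among regions below 400 in solvent and over 3 kb from a TSS, 30% were 2-fold higher at 72 h, against 10.5% of all. The peak also broadened from 334 to 594 bp, and on AUC per base the ratio at 72 h was 1.66. Immediately next to it, at +62.5 kb, the region chr18:28114566-28114847 had AUC values of 220, 563, 782 and 701, with ratios of 0.92, 1.45 and 1.43, and was chosen for mention after its values were seen. Omitting the +61.9 kb region, the locus sum had a log2 ratio of 0.97 at 72 h, so that the 2-fold call of CDH2 depended on it.

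Further along intron 2, a region at +138 kb (chr18:28039157-28039402) had no peak in solvent and AUC values of 367, 457 and 638, increasing at each time. In intron 7, at +180 kb (chr18:27996589-27997304), the values were 266, 571, 575 and 882, with ratios of 0.66, 0.73 and 1.49. That peak widened from 165 to 716 bp, and per base its 72 h ratio was -0.56, while the −log10 q at the summit was 4.75 in solvent and 6.26 at 72 h. The other gained region common to all TGFβ1 lists lay at +234 kb (chr18:27942777-27942996), within an intron of another transcript, with 232, 444 and 373. At +112 kb (chr18:28065443-28065762), also chosen after its values were seen, intron 2 had no peak in solvent or at 6 h and AUC values of 704 at 24 h and 900 at 72 h. A contrast was given by the region over exon 2 at +29.4 kb (chr18:28147652-28147881), with 211, 252, 258 and 219 and ratios of -0.18, -0.09 and -0.19, and by that at +90.1 kb in intron 2, with 217, 395, 405 and 293 and a 72 h ratio of 0.19. An AP-1 motif occurred in the windows of 7 of the 18 CDH2 regions (38.9%). The share was 32.3% of all merged regions and 37.5% of those over 3 kb from a TSS. Among the 7 were the regions at +61.9, +62.5, +138 and +180 kb, whereas those at +112 and +234 kb held no AP-1 motif. No CDH2 window held an E-box, next to 17.9% of all merged regions with one.

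Set side by side, CDH1 and CDH2 thus differed in where the values departed from solvent. The 14 CDH1 regions and 7 CDH2 regions shared by solvent and 72 h had median log2 ratios of 0.01 and 0.91, and none and 3 of them, respectively, were 2-fold higher, next to 10.5% of all regions. The comparison has a limit in the level of signal, since 6 of the 7 CDH2 regions but 3 of the 14 CDH1 regions had a solvent AUC below 400, where the share over all regions was 27.2%. On AUC per base, with scaling recomputed on that measure, the 72 h ratio of the CDH2 locus was 0.29. Genes whose locus sums followed CDH2 most closely over the 3 times, by Euclidean distance among 15285 genes, were CPA6, SUGCT and RPRML, with 72 h log2 ratios of 1.14, 1.07 and 1.08. Those closest to CDH1, among 9158 genes, were ALG8, SYT7 and NDUFB8, at 0.13, 0.13 and 0.12.

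CDH4 (ENSG00000179242.16) lies on the plus strand of chromosome 20 from 61252261 to 61940617. After scaling, its promoter was lower with TGFβ1, and the sum of its other regions was higher. Its start site region, chr20:61251894-61254019, had AUC values of 3484, 4284, 3727 and 3353, and scaled log2 ratios of -0.14, -0.28 and -0.3. As deposited, the values were above solvent at 6 and 24 h. Without the promoter, the sum of the other 23 regions, which include an exon and the upstream flank besides introns, had log2 ratios of 0.33, 0.65 and 0.69. On AUC per base, the whole locus was at -0.14 at 24 h and -0.09 at 72 h. The highest ratio was in intron 3, at +506 kb (chr20:61758118-61758542), with AUC values of 236, 587, 1234 and 1041 and ratios of 0.87, 2.01 and 1.89. An intron 2 region at +304 kb (chr20:61556151-61556479) had no peak in solvent and 329, 955 and 1168 thereafter.

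A region 46.3 kb upstream of CDH4 (chr20:61205831-61206111) was likewise without a solvent peak, with AUC values of 289, 588 and 715, and the sequence above shows an overlapping E-box and AP-1 motif near its summit. In intron 7, at +635 kb (chr20:61887283-61887476), the gained values of 337, 378 and 339 were nearly level. The strongest intronic region, at +185 kb in intron 2 (chr20:61436258-61437623), had 3078, 4418, 4418 and 4477 and a 72 h ratio of 0.29. Close to the 3′ end and nearest to the neighbouring gene TAF4, the region in intron 11 at +673 kb (chr20:61925302-61926439) had 1776, 3340, 3769 and 3346 and a ratio of 0.67. In intron 4, the lowest intronic ratio was seen at +537 kb (chr20:61789344-61789773), with 1209, 1316, 1359 and 1187 and a 72 h ratio of -0.27. The SMAD palindrome GTCTAGAC was found in 1 cadherin window only, in CDH4 intron 10 at +672 kb, where a peak was listed at 24 h alone with an AUC of 285.

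CDH6 and CDH11 encode type II cadherins, a branch of the family with a different adhesive interface from type I. Neither had a peak over any annotated start site in any list, in contrast to the other 5 genes. CDH6 (ENSG00000113361.13; chromosome 5, 31193686 to 31329146, plus strand) held 4 regions, each with an AUC of at most 720. Its largest, in intron 1 at +1.33 kb (chr5:31194874-31195226), had no peak in solvent and AUC values of 451, 562 and 720. Both an E-box and an AP-1 motif were close to its summit. The regions at +38.7 kb in intron 1 (280, 345, 409 and 390) and +150 kb downstream (242, 283, 382 and 293) were peaked in all lists, with 72 h ratios of 0.23 and 0.03. The locus ratio of 1.38 therefore came mostly from new peaks, and without the +1.33 kb region it was 0.53. With lists of equal length the ratios for 6, 24 and 72 h were -0.66, -0.28 and 0.21.

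CDH11 (ENSG00000140937.14) lies on the minus strand of chromosome 16 from 64943753 to 65126112, and its locus was higher at 24 and 72 h than at 6 h. Log2 ratios of the sum over its 7 regions were 0.27, 1.1 and 1.23. Downstream of the gene, at +212 kb (chr16:64910191-64910758), a region without a peak in solvent had AUC values of 362, 1227 and 1054. In intron 7, at +138 kb (chr16:64983993-64984301), the AUC was 215 in solvent, then 480 at 6 h and 893 at both 24 and 72 h, with ratios of 0.72, 1.68 and 1.81. Neither the downstream nor the intron 7 window held any of the 3 motifs. The strongest CDH11 region, in intron 11 at +158 kb (chr16:64964114-64964642), had 811, 1045, 1465 and 1583 and ratios of -0.08, 0.47 and 0.72. Near the start, at +3.96 kb in intron 1, values of 242, 463, 635 and 484 gave a 72 h ratio of 0.75, and at +51.1 kb 772, 1000, 1104 and 1053 gave 0.2. Restricted to the gene body, the 72 h locus ratio of CDH11 was 0.93, and per base 0.13.

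CDH13 (ENSG00000140945.17) is the longest of the 7 genes, at 1174 kb on the plus strand of chromosome 16 (82626965 to 83800640), and accounted for 51 regions. Its peaked regions numbered 26 in solvent, then 43 at 6 h, 44 at 24 h and 47 at 72 h. Log2 ratios of the locus sum were 0.36, 0.56 and 0.72, while the promoter was near solvent level. The region over its start site, chr16:82626808-82628594, had AUC values of 3156, 4900, 4430 and 4216 and ratios of 0.19, 0.11 and 0.17. Of 48 regions with a peak in solvent or at 72 h, 22 were gained (45.8%) and 1 was lost (2.08%), compared with 29.3% and 2.43% of all regions. Among regions more than 3 kb from any TSS, 47.6% of those of CDH13 and 35.4% overall were gained.

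Large gains of CDH13 were spread over its introns. In intron 8, at +1027 kb (chr16:83653777-83654215), AUC values in the TGFβ1 lists were 619, 895 and 1267. In intron 4, at +574 kb (chr16:83200387-83200815), the values were 362, 797 and 853. Both of these regions were highest at 72 h. Among shared regions, intron 2 at +310 kb (chr16:82936928-82937596) had 292, 897, 1036 and 1160, with ratios of 1.18, 1.45 and 1.75. Intron 6 at +738 kb (chr16:83365138-83365614) had 378, 1141, 1166 and 1167, a difference reached by 6 h, with ratios of 1.15, 1.25 and 1.38. The former peak widened from 185 to 669 bp, and its ratio per base was -0.04 at 72 h.

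Lower values at CDH13 were few. The region at +708 kb in intron 5 (chr16:83334358-83334572) had 275, 465 and 408 and no peak at 72 h. In intron 1, at +73 kb (chr16:82699818-82700074), values of 335, 404, 315 and 282 gave ratios of -0.17, -0.47 and -0.49. The only region of the 7 loci that was 2-fold lower at any time lay 1221 kb downstream of the CDH13 start, beyond the gene and nearest to HSBP1 (chr16:83847405-83847887), with 415, 581, 215 and 292 and ratios of 0.04, -1.33 and -0.75.

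Motifs were present in the cadherin regions at shares near those of accessible DNA at large. AP-1 motifs were in the windows of 50 of 139 regions (36%), next to 32.3% of all merged regions and 37.5% of those over 3 kb from a TSS. E-boxes were in 21 (15.1%), next to 17.9% overall. Of the 30 regions peaked in all TGFβ1 lists and not in solvent, 12 (40%) held an AP-1 motif, and 40.1% of all regions with that pattern did. In 35116 RefSeq promoters, taken as the 250 bp upstream of the start, the share with an AP-1 motif was 4.2% and with an E-box 17.5%.

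The partners of cadherins at the junction were examined as 16 genes for catenins, nectins and their linkers. Their locus sums had median log2 ratios of 0.08 at 6 h, 0.07 at 24 h and 0.09 at 72 h, close to 0.05, 0.1 and 0.11 over all genes. Of the 16, 12 were above 0 and 4 below at 72 h, and 2 were at least 2-fold higher, beside 4.35% of all genes. These were CTNND2 (δ-catenin, a neural member of the p120 family) at 1.07 and CTNNA3 (αT-catenin) at 1.05, followed by CTNNA2 (αN-catenin) at 0.86. The lowest were NECTIN2 at -0.19, CTNND1 (p120-catenin) at -0.08 and JUP (γ-catenin) at -0.03. CTNNB1, which encodes β-catenin, was at 0.23 and CTNNA1, the epithelial α-catenin gene, at 0.08, both added here for their role.

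Among 12 further cadherin genes, 9 had a solvent peak in their locus, with median log2 ratios of 0.31, 0.59 and 0.53. The highest at 72 h were CDH19 at 2.17, CDH9 at 2.16 and CDH20 at 1.11, all from few solvent peaks, with 2, 1 and 4 peaked regions in solvent and 8, 3 and 9 at 72 h. CDH15 (M-cadherin of muscle), CDH24 and CDH22 were the lowest, at -0.08, 0.03 and 0.05. CDH8 and CDH10 had peaks with TGFβ1 only, and CDH7 had none in any list.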

How the data were processed

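Chromatin accessibility was measured by ATAC-seq in 8 MCF10A libraries, 2 per condition. According to the methods and processing notes of the study, the authors used Trimmomatic 0.38 for trimming, Bowtie2 2.4.5 for mapping to GRCh38, Picard for duplicates and SAMtools 1.4.1 to keep properly paired non-mitochondrial reads. Peaks came from Genrich 0.5, run for ATAC-seq once per condition with its replicates together, and those in blacklisted regions were left out. The deposited lists hold, per peak, a signal value, the AUC, which the authors limited to above 200, and the −log10 of the q-value at the summit. The lowest AUC in each deposited list was 200. The condition of a list was taken from its name, since the lists belong to the series as a whole. Calling both replicates together and the AUC limit mean that a missing peak is not missing signal.

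Peaks sharing 1 bp or more were merged (Python 3.11.15, pandas 2.3.3, numpy 2.4.6), AUC was summed per region and list, and each list was divided by its median ratio to solvent at the shared regions within 3 kb of a GENCODE 44 TSS. Locus sums took in the gene body and 50 kb on either side. No test was made, since each condition gives 1 value. Steps were tested on simulated data with known gains, losses and folds. Motifs were searched on both strands within 100 bp of summits, with sequences read by pysam 0.24.0. Promoters of CDH2 and CDH4 were found in the RefSeq table, and those of CDH1, CDH3, CDH6, CDH11 and CDH13 were not used here. That of CDH4 began at other starts than the canonical one and is not printed.

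The genes, lists of partners and other cadherins, and rules were chosen with earlier results of these data known. Regions named are, for each gene, the promoter, the region of largest AUC, up to 3 peaked in all TGFβ1 lists and not in solvent, up to 3 lost at 72 h, and up to 2 of highest and 2 of lowest ratio at 72 h, where 3 regions that meet these rules are not reported here. From the lists of partners and other cadherins, the 3 highest and 3 lowest at 72 h are named, and 3 genes of most similar course for CDH1 and CDH2. Alternatives were another minimum AUC, overlap, fold or scaling, AUC per base, lists of equal length, and the gene body alone. A ratio was taken as moved when it shifted by more than 1.5-fold or crossed 2-fold, and a count when it differed by more than 1.5 times.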

Additional observations from a re-analysis of the deposited data

How the results depend on the processing

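No paired analysis was possible because the lists were called on both replicates together, and leaving out a replicate could not be done for the same reason. Merging at an overlap of 100 bp or more moved none of 12 counts and 21 locus ratios. Depth is unknown, so that what the lists could not detect cannot be set.

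On AUC per base, locus log2 ratios moved to 0.17 at 24 h and 0.29 at 72 h for CDH2, -0.14 and -0.09 for CDH4, 0.24 and 0.25 for CDH6, and 0.24 and 0.13 for CDH11, and to 0.01 at 72 h for CDH13. The intronic regions of CDH2 at +180 kb and of CDH13 at +310 kb reversed on that measure, to -0.56 and -0.04 at 72 h, and regions 2-fold higher were 1, 3 and 3 at 6, 24 and 72 h, with 1 lower at 6 h. Both reversed peaks were wider at 72 h than in solvent. With lists of equal length, CDH2 was at 0.91 at 72 h and CDH6 at -0.66, -0.28 and 0.21 at 6, 24 and 72 h, gains were 7, 20 and 21, losses 5, 12 and 13, and 0 regions were lower at 24 h. In the gene body alone, CDH6 was at 1.06, 1.41 and 1.99, CDH11 at 0.75 at 24 h and 0.93 at 72 h, and 0 regions were lower at 24 h. Without scaling, CDH2 was at 1.23 at 24 h, CDH6 at 1.05 and 1.37 at 6 and 24 h, and regions higher were 11 at 6 h and 15 at 24 h, with 0 lower at 24 h. Scaling on all shared regions gave 0.97 for CDH2 at 72 h and 0.98 for CDH11 at 24 h, and -0.03 for CDH1 at 72 h. Scaling on protein-coding starts gave 1.02 for CDH6 at 24 h. A minimum AUC of 400 gave 1.18 for CDH2 at 24 h and left 0, 0 and 2 regions higher and 0 lower at 24 h, whereas CDH6 had no solvent peak left and no ratio. At a fold of 1.5, regions higher were 11, 16 and 19 and regions lower 1, 2 and 2. The cause of these shifts was not tested.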
